A study of Homo sapiens with 16 samples.

Results

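The skeletal myosin heavy chain gene cluster on chromosome 17 holds MYH13, MYH8, MYH4, MYH1, MYH2 and MYH3 side by side. Its members here were all regions of the deposited count tables that overlap chr17:10180000-10600000 (hg19) by at least 1 base: 5 of 40844 regions in experiment 6211 and 9 of 56949 in experiment 6086. All 14 lay wholly inside the window and all were tested. The 5 regions of 6211 each overlap a region of 6086, so the 14 regions mark 9 places, numbered 1 to 9 here by rising position. Which gene, exon or intron a region falls in is not given, because no gene annotation on hg19 was used here. RefSeq (GRCh38.p14) orders the 6 genes by rising position as MYH13, MYH8, MYH4, MYH1, MYH2 and MYH3.

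Myosin heavy chains are the motor proteins of the thick filament in muscle, and each carries the ATPase head that pulls on actin. MYH3 encodes the embryonic and MYH8 the perinatal heavy chain, MYH2, MYH1 and MYH4 encode the fast IIa, IIx and IIb chains, and MYH13 encodes the chain of extraocular muscle. The genes are switched on in turn as muscle fibres form and mature, under myogenic factors that bind E-boxes and MEF2 proteins that bind A/T-rich sites. Rh30 is a cell line from alveolar rhabdomyosarcoma, a tumour of cells that enter the muscle lineage without completing differentiation, and its driver is the fusion transcription factor PAX3-FOXO1.

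ATAC-seq, in which a transposase cuts accessible DNA, was run on Rh30 cells whose PAX3-FOXO1 carries an FKBP tag. Control cells received DMSO, for which the labels give no duration, and treated cells received 500 nM dTAG47, a molecule that directs FKBP-tagged proteins to degradation, with times of 0.5, 1 or 2 h in experiment 6211 and of 2, 4 or 24 h in experiment 6086. Each of the 8 groups had 2 libraries, A and B. Every group carried the tagged fusion, no untagged cells were included in the samples used here, and neither the loss of the fusion nor muscle marker expression was measured in these files. Effects of dTAG47 and of losing the fusion therefore cannot be told apart.

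Upstream sequences of the genes are shown because they carry the letters that muscle factors read and show how alike the neighbouring copies are. They are the 250 bases before the RefSeq start on GRCh38.p14, minus strand, 5′ to 3′. Their positions must not be set against the hg19 positions of the regions, so no open region is placed on a promoter. RefSeq promoter entries matched 5 of the 6 genes (MYH3 had none). Capitals mark the longest run shared by 4 of them, 15 bases, found after the sequences were examined.
MYH8, chr17:10421951-10422200: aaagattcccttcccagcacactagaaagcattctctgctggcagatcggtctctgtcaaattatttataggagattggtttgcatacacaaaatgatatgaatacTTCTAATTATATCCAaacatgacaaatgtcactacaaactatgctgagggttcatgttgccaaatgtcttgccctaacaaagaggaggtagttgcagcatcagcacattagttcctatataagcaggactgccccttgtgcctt
MYH4, chr17:10469560-10469809: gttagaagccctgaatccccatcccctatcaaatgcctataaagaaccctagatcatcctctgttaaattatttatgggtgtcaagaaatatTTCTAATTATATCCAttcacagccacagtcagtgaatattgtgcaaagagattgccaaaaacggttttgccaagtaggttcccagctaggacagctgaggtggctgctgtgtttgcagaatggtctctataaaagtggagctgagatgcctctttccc
MYH1, chr17:10518543-10518792: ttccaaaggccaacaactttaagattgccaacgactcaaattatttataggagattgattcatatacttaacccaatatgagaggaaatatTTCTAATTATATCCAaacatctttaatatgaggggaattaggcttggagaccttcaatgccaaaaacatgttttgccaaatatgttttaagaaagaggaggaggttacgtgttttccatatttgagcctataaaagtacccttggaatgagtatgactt
MYH2, chr17:10549659-10549908: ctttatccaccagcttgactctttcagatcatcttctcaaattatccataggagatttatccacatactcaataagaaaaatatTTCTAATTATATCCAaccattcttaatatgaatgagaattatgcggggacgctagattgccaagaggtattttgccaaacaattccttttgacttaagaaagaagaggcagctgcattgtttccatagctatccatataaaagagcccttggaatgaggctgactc

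The capitalised run starts 144 bases before the start of MYH8 and 158, 159 and 166 bases before those of MYH4, MYH1 and MYH2. The run was picked as common to these 4 sequences, so their 4 matches were fixed beforehand. No other of the 35116 RefSeq promoters of the same length held it on either strand, which is a description. MYH13 shared at most 10 contiguous bases with any of the 4 sequences above. Pairwise identity over the 250 bases ran from 53.2% (MYH13 and MYH4) to 69.3% (MYH1 and MYH2), and the longest run shared by any pair was 22 bases. On both strands, the E-box CANNTG was found upstream of 4 genes, against 61.8% of all promoters, and its form CAGCTG, a subset of CANNTG, upstream of MYH13, MYH4 and MYH2, against 14% of all. TATAAA was found upstream of all 5, against 10.7% of all promoters. The single match of MYH8 was on the opposite strand, 186 to 181 bases before the start. MYH13, MYH4, MYH1 and MYH2 each had a match on the strand of the gene between 31 and 24 bases before it. GTCACNC, a paired-domain motif, was found upstream of MYH13 alone among the 5, and 11% of all promoters held it. The MEF2 search covered only the exact form CTAAAA directly followed by ATAG, and other A/T-rich forms were not searched. That form and the paired homeodomain motif (TAAT and ATTA 3 bases apart) were found in none of these windows. They were found in 0.134% and 0.33% of all promoters. Whether other forms of MEF2 site are present is not answered. Such matches describe letters only and say nothing of binding.

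A level is a CPM value (read counts scaled to the reads in all regions of a library, with TMM factors) and a change is a log2 fold change with its standard error. Each region was tested by the quasi-likelihood method of edgeR, the Benjamini-Hochberg adjustment ran over all regions of a table, and a region is called at an adjusted p under 0.05. Libraries held 9934147 to 18275976 reads in regions in 6211 and 18038062 to 31308682 in 6086, of which 876 to 1741 and 2051 to 3184 fell in the cluster. Whether A and B were separate cultures is not stated in the labels, and the tests then weigh changes against a spread that may be technical only. ATAC-seq of bulk cells cannot tell fewer cells with an open region from less cutting of that region in each cell.

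Open regions were unevenly spread over the cluster. In 6086, regions 1 and 2 lay 28856 bp apart, then 158991 bp separated region 2 from region 3, and regions 4 to 9 lay together, 262 to 320 kb from region 1. The median gap between neighbouring regions of the whole 6086 table was 14318 bp, and 11.2% of gaps were over 100 kb. In 6211 a gap of 233584 bp separated region 2 from region 5. Averaged over all libraries of 6086, treated ones included, the regions with the most reads were region 6 (20.6 CPM, 446 bp wide), region 5 (20.5 CPM, 431 bp) and region 2 (15.1 CPM, 307 bp). Per kb of width these 3 had 46.1, 47.7 and 49.3 CPM, above 82.3%, 84.1% and 85.8% of all regions of the table. Regions 3, 4, 7, 8 and 9 were weaker, at 20.9 to 30.2 CPM per kb. Region 1 had the highest read level of the cluster in DMSO (26.0 CPM ± 1.19, SD, n = 2) and a lower one in the treated groups. Its level per kb in DMSO depends on the width of the called region. It was 28.4 CPM per kb over the 914 bp of 6086, below regions 2, 5 and 6 there, and 65.1 CPM per kb over the narrower region of 6211, where regions 2, 5 and 6 had 45.9, 64.6 and 65.9 CPM per kb.

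Region 1 (chr17:10257778-10258691 in 6086, chr17:10257830-10258230 in 6211) lost accessibility by 2 h of dTAG47 in both experiments. In 6086, which has the later times, it was also below DMSO at 4 and 24 h. In 6086 its DMSO libraries A and B had 26.8 and 25.2 CPM, the 2 h libraries 10.8 and 12.2 CPM, the 4 h libraries 8.98 and 8.75 CPM and the 24 h libraries 7.63 and 7.13 CPM. Every treated library lay below both DMSO libraries, and libraries of the 3 times did not overlap either. The log2 change from DMSO was -1.17 (SE 0.09, adjusted p = 7.9e-12) at 2 h, a 2.25-fold loss. It reached -1.55 (SE 0.09, adjusted p = 8.9e-15) at 4 h and -1.81 (SE 0.09, adjusted p = 2.0e-17) at 24 h, a 3.51-fold loss. Of all tested regions, those with a still lower log2 change made up 0.181% after 2 h, 0.135% after 4 h and 0.255% after 24 h. The authors' deposited table gives -1.17, -1.55 and -1.81 for the same comparisons. These are the values that DESeq2 gave here on the same counts, so they are not separate results.

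The narrower region 1 of 6211 covers the earlier times. DMSO libraries A and B had 28.5 and 23.7 CPM, the 0.5 h libraries 20.4 and 23.1 CPM, the 1 h libraries 22.2 and 16.8 CPM and the 2 h libraries 12.7 and 11.8 CPM. All treated libraries were below both DMSO libraries, but at 0.5 and 1 h the gap to the lower DMSO library was smaller than the spread between replicates. The log2 change was -0.27 (95% interval -0.54 to -0.00051, adjusted p = 0.75) at 0.5 h and -0.44 (-0.71 to -0.17, adjusted p = 0.070) at 1 h, neither past the threshold. By 2 h it had reached -1.10 (SE 0.15, adjusted p = 1.8e-05), a 2.14-fold loss. Tested directly, the 2 h level was below the 0.5 h level by a log2 change of -0.82 (SE 0.15, adjusted p = 0.0032), a call that was lost without 0.5 h library B (adjusted p = 0.12) or 2 h library B (0.064). At 1 h the region passed when DMSO library B or 1 h library A was left out (adjusted p = 0.013 each).

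At 2 h the regions of both experiments can be set side by side, since they share no library. Region 1 fell in both, and its 2 h effects differed by -0.07 (6086 minus 6211, log2, 95% interval -0.41 to 0.28, adjusted p = 0.98 in an edgeR interaction test over 37318 regions that overlap 1 to 1 by any amount). Under the stricter match of 50% reciprocal overlap region 1 had no partner, because its widths differ, and 4 of the members could be compared. Their differences ran from -0.20 (region 2, 95% interval -0.53 to 0.14) to 0.09 (region 5, -0.18 to 0.36), none past the threshold, and 0 of the 29639 matched regions passed, with 1539 at an unadjusted p under 0.05. The intervals reach a log2 difference of -0.59 (region 7), so a difference of that size in region 7 lies within the error.

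In 6086, where 2 h was the first time sampled, each later step in the loss of region 1 was smaller than the drop from DMSO to 2 h. From 2 to 24 h, which was not tested directly, its mean level in 6086 went from 11.5 to 7.38 CPM. The step from 2 to 4 h had a log2 change of -0.37 (95% interval -0.58 to -0.17, adjusted p = 0.17). The step from 4 to 24 h had -0.26 (95% interval -0.48 to -0.05, adjusted p = 0.071), and neither was called. Its share of all reads in the cluster in 6086 went from 23.3% ± 0.118 in DMSO to 12.9% ± 1.06 after 2 h, 10.1% ± 0.189 after 4 h and 7.41% ± 0.484 after 24 h (SD, n = 2). In 6211 the share was 24.9% ± 2.42 in DMSO and 14.1% ± 0.956 at 2 h (SD, n = 2).

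**Figure D1:**
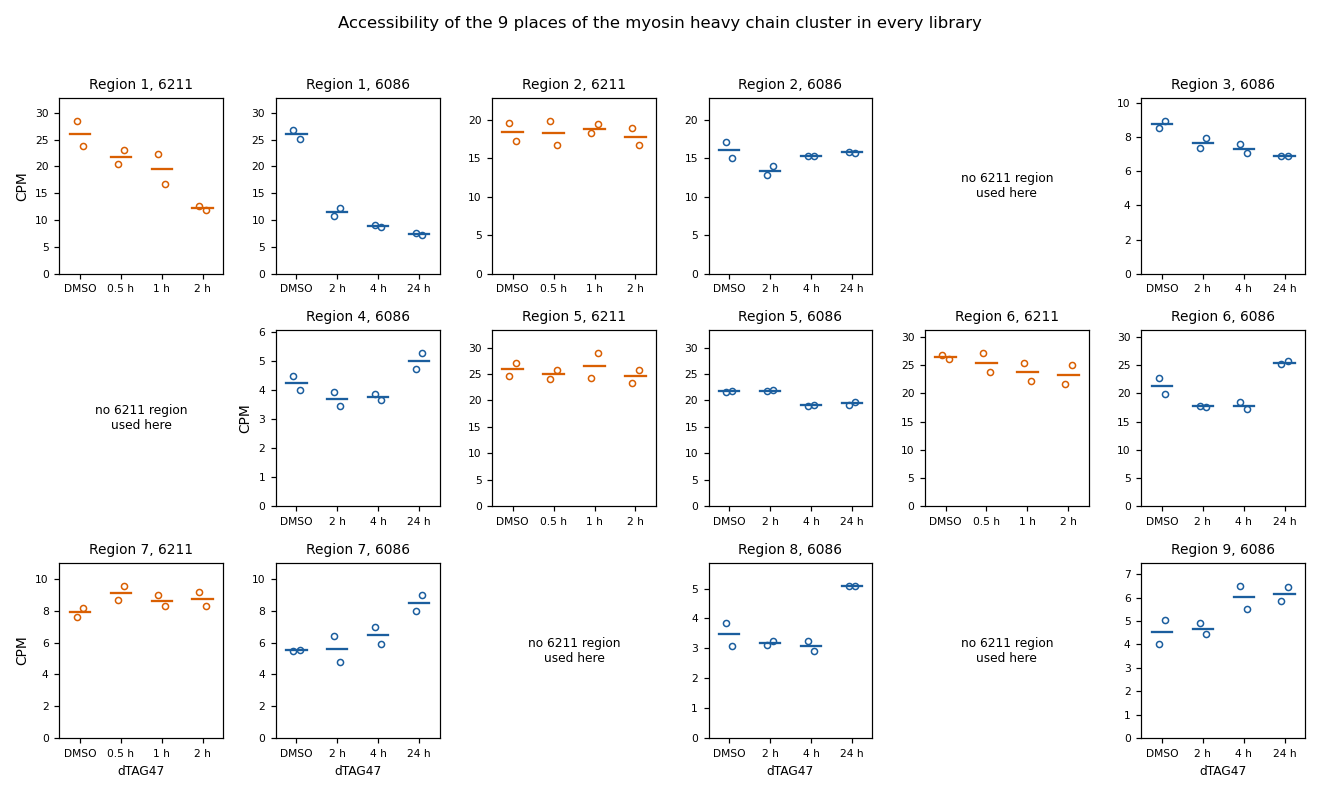
CPM (y axis, from 0) of each region in every library (open circles, A left and B right) by treatment (x axis), with the group mean as a bar; orange panels are experiment 6211 and blue panels 6086. In 6086, region 1 falls from 26.0 to 7.38 CPM, and regions 2 and 5 run from 12.8 to 17.1 and from 19.0 to 21.9 CPM. Regions 4, 6, 7, 8 and 9 have their highest group means of 6086 at 24 h.

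With all libraries in the fit, region 1 was the single member called in the first 4 h. At 0.5 h, 0 of 5 members were called in edgeR, where 0.00735% of all regions were, and DESeq2 called 0. The unadjusted edgeR p was under 0.05 for 1 of 5 members and for 2723 of 40844 regions. At 1 h, 0 of 5 were called against 2.69% of all regions, and 0 in DESeq2. There the unadjusted edgeR p was under 0.05 for 1 of 5 members and for 6687 of 40844 regions. At 2 h region 1 was the single member called lower in both experiments, 1 of 5 in 6211 (4.92% of all regions) and 1 of 9 in 6086 (4.25%). At 4 h it was again 1 of 9 (5.44%). The same region gave the 1 of 5 members called lower between 0.5 and 2 h, where 1.28% of all regions were. Between 2 and 4 h, 0 of 9 members were called against 0.0808% of all regions, and 0 by DESeq2. Over this step the unadjusted edgeR p was under 0.05 for 4 of 9 members and for 5020 of 56945 regions. No member was called higher at any of these times. Without 6086 DMSO library B, regions 2 and 6 were also called lower at 2 h and region 6 at 4 h.

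With all libraries in the fit, regions 2 and 5 were not called at any time, and region 3 was called lower at 24 h. In 6086, region 2 (chr17:10287548-10287854) had 17.1 and 15.1 CPM in DMSO, 12.8 and 13.9 after 2 h, 15.2 and 15.3 after 4 h and 15.8 and 15.7 after 24 h. Its 2 h libraries were below both DMSO libraries (log2 change -0.26, SE 0.09, adjusted p = 0.11), while the 4 and 24 h libraries lay between them. In 6211 it had 19.6 and 17.2 CPM in DMSO, 19.8 and 16.8 after 0.5 h, 18.3 and 19.4 after 1 h and 18.9 and 16.7 after 2 h, with overlapping groups and a 2 h log2 change of -0.05 (95% interval -0.32 to 0.21). Region 5 (chr17:10521517-10521947) had 21.7 and 21.8 CPM in DMSO, 21.8 and 21.9 at 2 h, 19.0 and 19.1 at 4 h and 19.2 and 19.7 at 24 h. Its replicates lay close together, and both later times were below DMSO without passing the threshold. The log2 change was -0.19 at 4 h and -0.16 at 24 h, where edgeR gave adjusted p = 0.17 and 0.11. Region 3 (chr17:10446846-10447131) went from 8.57 and 8.96 CPM in DMSO to 7.34 and 7.93 at 2 h, 7.59 and 7.07 at 4 h and 6.90 and 6.91 at 24 h. Region 3 was called lower at 24 h alone (log2 change -0.35, SE 0.11, adjusted p = 0.012), a call that DESeq2 did not make (adjusted p = 0.14). It was also lost when DMSO library B was left out (0.12), or 24 h library A (0.055) or B (0.060).

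After 24 h of dTAG47, 4 of the 9 members were called higher (44.4%, against 13.6% of all regions), namely regions 6, 7, 8 and 9, the 4 with the highest coordinates. Lower calls were made for 2 of 9 members (22.2%, against 18.6% of all regions), regions 1 and 3. The median log2 change over the 9 members was 0.25, and over all regions it was -0.0031. The lower share is near the background. The count of higher members depended on the tool and on single libraries: DESeq2 called 1 of 9, and edgeR called 2 of 9 without DMSO library B or without 24 h library B. The shares of all regions called by DESeq2 or with a library left out were not counted. The members were chosen with results of these data known, so these counts are a description.

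Region 7 (chr17:10561276-10561491) had the highest log2 change at 24 h, within the error of that of region 8. It had 5.49 and 5.55 CPM in DMSO, 6.43 and 4.77 at 2 h, 6.98 and 5.92 at 4 h and 7.99 and 9.0 at 24 h. Both 24 h libraries were above all others, whereas the 2 h libraries lay on either side of DMSO. The log2 change at 24 h was 0.62 (SE 0.13, adjusted p = 0.00026), a 1.54-fold gain, and in the authors' deposited table it is 0.63 (adjusted p = 0.0082). At 24 h the deposited values of regions 1, 3, 6, 7, 8 and 9 are those that DESeq2 gave here, so they are not separate results. They leave regions 3, 6, 8 and 9 uncalled (DESeq2 adjusted p = 0.14, 0.065, 0.071 and 0.14). Of the 4 gains, that of region 7 passed in DESeq2 and without any 1 library.

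Region 8 (chr17:10564775-10564934), 3283 bp further on, had 3.86 and 3.09 CPM in DMSO and 5.10 and 5.07 at 24 h. Its 2 h (3.11 and 3.25 CPM) and 4 h (3.25 and 2.92 CPM) libraries lay within or just below the DMSO range, and both 24 h libraries lay above it. The 24 h log2 change was 0.57 (SE 0.15, adjusted p = 0.0021). DESeq2 did not call it (adjusted p = 0.071), and neither did edgeR when DMSO library B was left out (0.11).

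Region 9 (chr17:10578166-10578364) had 4.03 and 5.05 CPM in DMSO, 4.90 and 4.43 at 2 h, 6.51 and 5.52 at 4 h and 5.85 and 6.43 at 24 h. Both later times lay above DMSO. The 4 h log2 change of 0.38 missed the threshold (SE 0.14, adjusted p = 0.13), and the 24 h change of 0.41 passed it (SE 0.14, adjusted p = 0.018). DESeq2 gave the 24 h change an adjusted p of 0.14, and leaving out DMSO library A (0.18) or 24 h library B (0.14) ended the call.

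Region 6 (chr17:10528270-10528715) had its lowest levels at 2 and 4 h and its highest at 24 h. It had 22.8 and 19.8 CPM in DMSO, 17.8 and 17.6 at 2 h, 18.5 and 17.1 at 4 h and 25.2 and 25.7 at 24 h. The 2 and 4 h libraries were below both DMSO libraries without passing the threshold (log2 changes -0.26 and -0.25, adjusted p = 0.069 and 0.066), and both 24 h libraries were above them (0.27, SE 0.08, adjusted p = 0.0068). DESeq2 gave this gain an adjusted p of 0.065. It also missed the threshold when DMSO library B (0.19) or 24 h library B (0.051) was left out. In 6211, region 6 had 26.8 and 26.1 CPM in DMSO, 27.1 and 23.7 after 0.5 h, 25.4 and 22.2 after 1 h and 21.6 and 25 after 2 h. Both 2 h libraries were again below DMSO, with a log2 change of -0.19 (95% interval -0.43 to 0.05, adjusted p = 0.38).

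The step from 4 to 24 h sets no DMSO level against a treated one, although the DMSO libraries entered the fit. It was called higher for 4 of 9 members, where 8.73% of all regions were. Region 8 rose by 0.72 (SE 0.14, adjusted p = 0.00029) and region 6 by 0.51 (SE 0.08, adjusted p = 5.7e-06), and both passed in DESeq2 and without any 1 library. Region 7 rose by 0.40 (adjusted p = 0.015) and region 4 by 0.41 (adjusted p = 0.028). Region 4 (chr17:10519929-10520127) had 4.48 and 3.99 CPM in DMSO and 3.94 and 3.46 at 2 h. It had 3.86 and 3.64 CPM at 4 h and 4.70 and 5.26 at 24 h. At 24 h it was not called against DMSO (log2 change 0.25, adjusted p = 0.19). DESeq2 did not call regions 4 and 7 (adjusted p = 0.27 and 0.17). Leaving out 4 h library B (0.18 and 0.25) or 24 h library B (0.23 and 0.17) also ended both calls, and leaving out 4 h library A ended that of region 4 (0.084). Region 9 had a log2 change of 0.04 (95% interval -0.22 to 0.29) over this step.

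**Figure D2:**
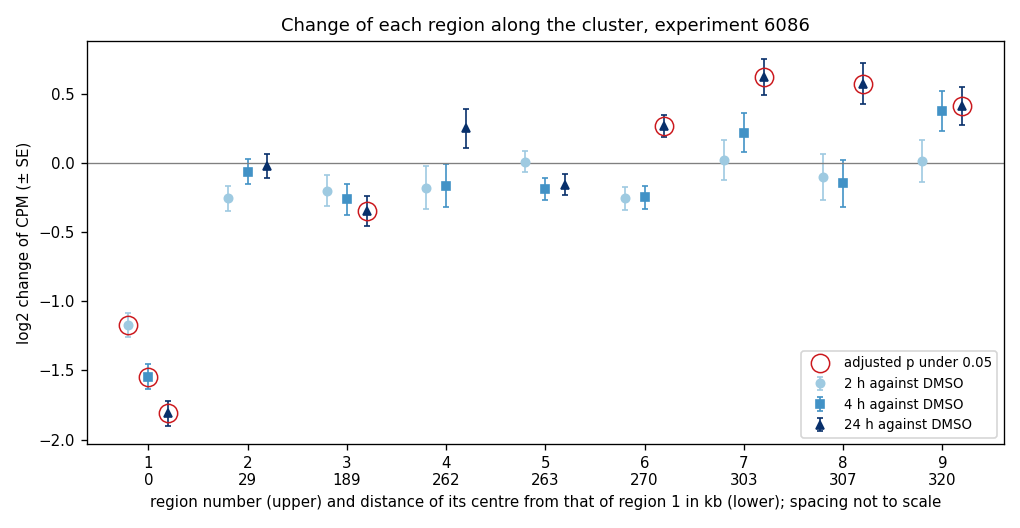
Log2 change from DMSO (y axis, ± SE) of the 9 regions of experiment 6086 in order of position (x axis) at 2 h (circles), 4 h (squares) and 24 h (triangles); red rings mark adjusted p under 0.05. Region 1 is far below 0 at all 3 times, from -1.17 to -1.81, and at 24 h regions 6 to 9 lie above 0, from 0.27 to 0.62.

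In 6211, regions 2, 5, 6 and 7 were not called at any time. Region 7 there had 7.61 and 8.19 CPM in DMSO, 8.69 and 9.57 at 0.5 h, 8.96 and 8.29 at 1 h and 9.14 and 8.29 at 2 h. The treated libraries lay above both DMSO libraries, with a 2 h log2 change of 0.15 (95% interval -0.19 to 0.49, adjusted p = 0.67). Region 5 had 24.6 and 27.2 CPM in DMSO, 24.1 and 25.8 after 0.5 h, 24.2 and 28.9 after 1 h and 23.4 and 25.8 after 2 h, and its groups overlapped.

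Summed over all members of 6086, the cluster had 111.7 ± 4.54 CPM in DMSO, 89.2 ± 0.369 at 2 h, 87.6 ± 3.22 at 4 h and 99.6 ± 1.74 at 24 h (SD, n = 2). Region 1 and the other 8 regions took different courses within this sum. The other 8 together had 85.7 ± 3.35 CPM in DMSO, 77.7 ± 0.628 at 2 h, 78.8 ± 3.06 at 4 h and 92.3 ± 2.10 at 24 h (SD, n = 2). In 6211 the sum went from 104.7 ± 3.29 CPM in DMSO to 99.5 ± 0.904 at 0.5 h, 97.4 ± 2.48 at 1 h and 86.5 ± 1.29 at 2 h (SD, n = 2). There the 4 regions other than region 1 had 78.6 ± 0.0658 CPM in DMSO and 74.3 ± 1.93 at 2 h. The sums are not tested.

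**Figure D3:**
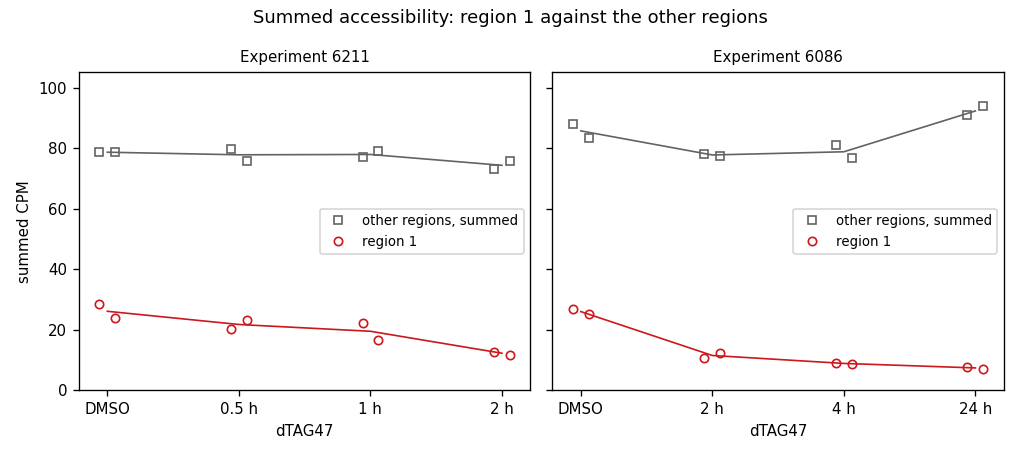
Summed CPM (y axis, from 0) by treatment (x axis) of region 1 (red circles) and of all other regions of the cluster together (grey squares) in experiments 6211 (left) and 6086 (right); each symbol is 1 library and lines join group means. Region 1 falls with time in both, and the other 8 regions of 6086 go from 85.7 CPM in DMSO to 77.7 at 2 h and 92.3 at 24 h.

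Next to the window, the nearest region above it (chr17:10600568-10601303, 568 bp outside) changed little in 6086. Its log2 changes were -0.04, 0.05 and 0.01 after 2, 4 and 24 h (adjusted p = 0.84, 0.80 and 0.94). Its partner in 6211 had -0.04 at 2 h (adjusted p = 0.87). Another region 33306 bp beyond the window rose at 24 h (0.38, SE 0.14, adjusted p = 0.040). Below the window the nearest region used here lay 700654 bp away, with log2 changes in 6086 from -0.25 to -0.21 at the 3 times, none past the threshold. Its partner in 6211 had a 2 h log2 change of 0.26 (adjusted p = 0.34).

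The regions elsewhere whose log2 CPM followed the summed cluster most closely over the 8 libraries of 6086 were chr6:23180803-23181246 (Pearson r 0.990), chr9:8809697-8810129 (0.989) and chr1:201417282-201417924 (0.989), among 56679 regions with a mean count of at least 30. The first went from 18.6 CPM in DMSO to 11.9, 11.3 and 14.3 at 2, 4 and 24 h. In 6211 the closest were chr11:121800296-121800696 (0.995), chr18:12410153-12410553 (0.994) and chr16:89609375-89609775 (0.992). Both measures come from the same 8 libraries and follow the same treatments, and 447 regions of 6086 and 836 of 6211 had an r over 0.9, so these likenesses are descriptions.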

How the data were processed

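ATAC-seq reads of 16 libraries of Rh30 cells were analysed from the deposited tables. Raw read counts per consensus region are the authors' deposited values, whole numbers whose totals differ between libraries. The deposited comparison tables give the authors' log2 fold changes and adjusted p-values, per the file headers in DESeq2's form. Per the submitters' processing notes, Bowtie2, Trimmomatic 0.32, deepTools, DESeq2, DiffBind and Genrich 0.6.1 were used. Those notes list hg19 and dm3 as builds and give no role for either. Transposase shift, duplicates, reads that map to several gene copies and peak merging are not given in the sources used here. In 6211, 97.8% of regions are 401 bp wide and in 6086 the median is 320 bp, so CPM levels are not compared between tables. The exception is the DMSO level per kb of region 1, given for both to show how it depends on width.

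The count test was that of edgeR 4.0.16 under R 4.3.3 (TMM factors, filterByExpr, quasi-likelihood test, 8 libraries of an experiment in 1 fit, 4 residual and a median of 19.6 or 29.9 prior degrees of freedom), adjusted over 40844 and 56945 regions. The alternative tool was DESeq2 1.42.0. Column names carry treatment and time, which gave each column its group. Letters A and B could not be tied to replicate numbers. In a simulation, 200 regions of each experiment were changed, 50 at each fold, and all others were left unchanged. Counts were drawn with the spread of the fitted trend, so recovery in the real data may differ. Simulated 2 h changes of 1.25-fold were recovered in 30% of cases in 6086 (56945 regions) and in 14% in 6211 (40844 regions). Those of 1.5-fold were recovered in 82% and 64%, and those of 2-fold in 96% and 100%. Regions were matched with bedtools 2.31.1, and upstream sequences (RefSeq, GRCh38.p14) were aligned with Biopython 1.88. The fusion's and other muscle genes' regions were not counted, since no annotation on hg19 was used.

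Named with values in every library were members past the threshold in any comparison, the 3 with the most reads in each table and their partners. The members and lists were chosen with earlier results of these data known. Alternatives were DESeq2, median-ratio factors, library size only, no filter, only the groups compared, each library left out, a replicate block, an adjusted p under 0.01 and other overlaps.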

Additional observations from a re-analysis of the deposited data

How the results depend on the processing

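Median-ratio factors, library size only, no filter and only the groups compared changed no count of called members and no call of a named member. No pairing of libraries is given. The letters A and B correlated between groups from -0.15 to 0.16 in 6086 and from -0.05 to 0.21 in 6211, and a replicate block by letter left the count of members at 24 h at 4 higher and 2 lower and changed no other call. DESeq2 gave 1 higher and 1 lower member at 24 h in place of 4 and 2, and 2 higher in place of 4 from 4 to 24 h. At an adjusted p under 0.01, 1 member was lower and 3 were higher at 24 h, and 2 were higher from 4 to 24 h. The shares of all regions called by DESeq2, at this cutoff or with a library left out were not counted. Leaving out 1 library, with the lone sample assumed to vary like the other groups, gave 1 to 3 lower members at 2 h and 1 to 2 at 4 h in 6086, 2 to 4 higher and 1 to 2 lower at 24 h, 2 to 4 higher from 4 to 24 h, 0 to 1 at 1 h and 0 to 1 lower from 0.5 to 2 h in 6211, where the extremes came without DMSO library B, 24 h libraries A and B and 4 h library B of 6086 and DMSO library B, 1 h library A, 0.5 h library B and 2 h library B of 6211. The loss of region 1 at 2, 4 and 24 h passed in every one of these settings, with log2 changes from -1.26 to -1.09, -1.60 to -1.50 and -1.86 to -1.76 when 1 library of 6086 was left out. Scaling by library size or median ratios, added after the data were seen, moved no summed level by more than its SD. Regions 4, 8 and 9 had mean counts of 106, 95.4 and 137 reads, against 514 and 524 for regions 5 and 6, and their standard errors were larger.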
